A study of Mus musculus with 139 samples.

Results

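The RNP mesh of mouse embryonic stem cells (ESCs) was compared with whole-cell RNA of the same engineered line, both as polyadenylated RNA and both untreated. The comparison used 2 RNPmesh libraries and 2 RAD0 libraries at 0 hr, 4 of the 139 samples of the series, chosen by their labels and joined by gene identifier. All cells were EXOSC2 AID ESCs, in which the core RNA exosome subunit EXOSC2 carries an auxin-inducible degron, so the control cells carry the tag too. No auxin analogue (IAA) was given at 0 hr. The mesh libraries came from ESC nuclei treated with DNase I and washed with 1 M urea, 1% NP40 and 2 M NaCl, with the RNA taken from the pellet that remained. The RAD0 libraries came from whole cells cultured without retinoic acid and extracted directly. The labels do not say that the 2 libraries of a group came from separate cultures, so their spread may be technical. Further libraries of the same line served as a repeat or a testable neighbour: RNPmesh and RAD0 libraries after 4 hr of 0.5 mM IAA, which degrades the tagged protein, and rRNA-depleted chrRNP, cyto and wcl libraries at 0 hr (2 of each). chrRNP is the nuclear pellet left by a milder wash, with NP40 at 0.5%, urea at 0.5 M and NaCl at 0.15 M, cyto is the cytosol and wcl the whole-cell lysate.

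As background, a nucleus stripped of DNA and soluble protein leaves an insoluble network of ribonucleoprotein, long described as the nuclear matrix. Long noncoding RNAs that stay in the nucleus, RNAs still being spliced and RNAs held in nuclear bodies are often recovered with it, while most mature messages are exported and translated in the cytosol. Messages for secreted and membrane proteins are translated on the endoplasmic reticulum, whose membrane is continuous with the outer nuclear envelope. The nuclear RNA exosome degrades many transcripts that are not exported.

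Values are FPKM (fragments per kilobase, scaled to library size), rescaled between libraries by the median ratio over genes and compared as log2(rescaled FPKM + 1). Of 52885 genes in the joined tables, 7939 with a locus span under 300 bp were left out and 12565 reached 1 rescaled FPKM in at least 2 of the 4 libraries. The mesh and whole-cell libraries stand in separate tables and were prepared under separate protocols, so the kind of RNA and any batch cannot be told apart, and differences are described, with no p-value. A gene is called higher or lower in mesh when even its nearest mesh and whole-cell libraries are at least 1 apart on the log2 scale, a 2-fold gap on the values + 1. Differences follow as log2 mesh minus whole cell ± the pooled SD of replicate libraries (n = 2 each). A higher share of a library and more RNA per cell cannot be told apart here.

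Mesh replicate 2 stood apart from the other libraries. Snord49b, a small nucleolar RNA under the span limit, took 42.2% of its summed FPKM and was listed at 0 in mesh replicate 1. The rRNA-overlapping Gm42418 had 615 and 7029 rescaled FPKM in mesh, against 442 and 565 in whole cell. Calls are therefore also given with mesh replicate 2 left out. Apart from the rescaling and the filter, leaving out a library can add calls but not undo them. The ESC identity of the libraries held in both kinds of RNA: Pou5f1 had 282 and 301 in mesh, against 495 and 511 in whole cell, and the 32 naive pluripotency factors summed to 3188 and 3361 in mesh, against 4397 and 4429 in whole cell. Of 15 fibroblast markers, 2 passed the filter and 5 were at 0 in all 4 libraries. Of 14 primitive endoderm markers 2 passed and 3 were at 0, of 14 trophoblast markers 6 passed and 2 were at 0, and of 19 markers of the 2-cell-like state only Eif1a passed and 15 were at 0. The tagged gene Exosc2 had 8.85 and 12.3 in mesh, against 4.49 and 6.24 in whole cell, which was not a call (0.86 ± 0.29).

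Mesh and whole-cell RNA differed widely. In mesh 1648 genes were higher (13.1% of those tested) and 1338 were lower (10.6%). The higher genes had a median difference of 1.86, and 1271 of them were at 1 rescaled FPKM or more in all 4 libraries, while 293 were under 1 in both whole-cell libraries. The lower genes had a median of -1.63, and 404 of them were under 1 in both mesh libraries. Without mesh replicate 2 there were 1752 higher and 1510 lower calls. Of the 1648 higher genes 1360 still passed the filter, and all 1360 were still called. All 1338 lower genes passed, and 1252 were still called. Because a call needs a gap between the nearest libraries, leaving out a library cannot narrow it except by rescaling. The kept calls are therefore no check on that library. The median over all genes was -0.01. Higher genes made up 55.2% of the calls, a share that depended on the scaling: it was 39.7% (1278 higher, 1945 lower) on values as deposited, where the all-gene median was -0.25, and 67.4% (2022 higher, 979 lower) when libraries were scaled on genes past 20 FPKM, where the median was 0.16.

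The differences between the kinds of RNA were larger than those between replicates. Of the 12565 genes, 325 (2.59%) differed by 1 or more on the log2 scale between the mesh replicates and 96 (0.764%) between the whole-cell replicates, while 4182 (33.3%) did so between the group means. Across genes, which are not independent replicates, over the 12565 genes r was 0.970 between the mesh libraries, 0.989 between the whole-cell libraries and 0.776 between the group means.

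**Figure D1:**
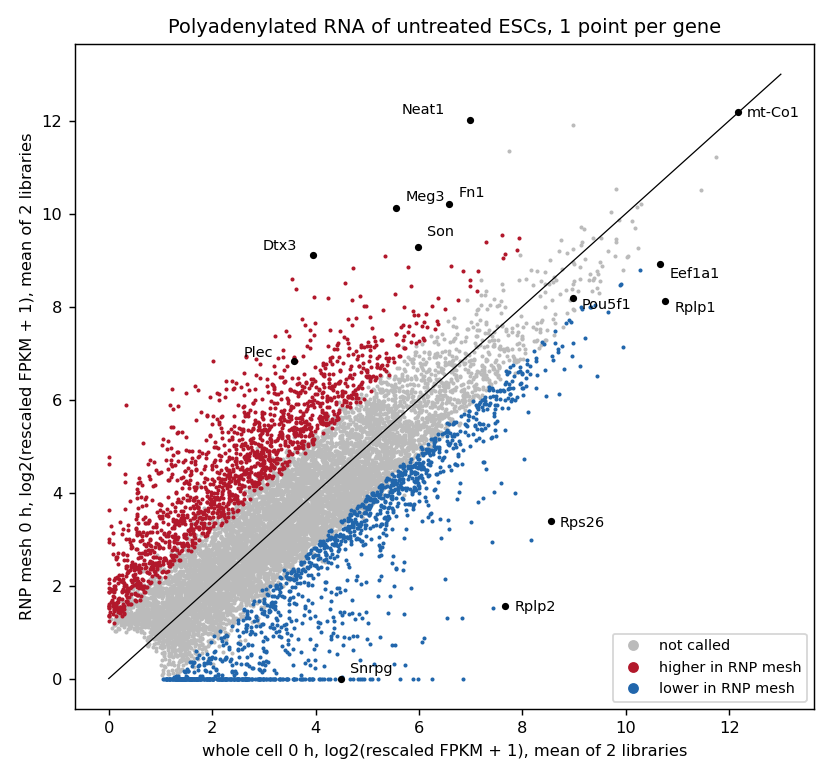
Mean rescaled FPKM per gene in mesh (vertical axis) and in whole cell (horizontal axis), both as log2(rescaled FPKM + 1), for the 12565 genes tested at 0 hr. Coloured points are the 1648 genes called higher and the 1338 called lower in mesh. Among the named genes, mt-Co1 (0.01) and Pou5f1 (-0.79) were not called.

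Nuclear long noncoding RNAs were among the highest. Of 18 tested members of a list of 32, 8 were higher (13.1% of all genes), 2 were lower, and the median difference was 0.96, against -0.01 over all genes. The list had 9 higher and 2 lower without mesh replicate 2. Neat1, the architectural RNA of paraspeckles, had 3637 and 4667 rescaled FPKM in mesh, against 127 and 126 in whole cell. Its mean in mesh was 32.9 times that in whole cell (5.02 ± 0.18). Meg3, a maternally expressed noncoding RNA of the imprinted Dlk1-Dio3 region, had 699.7 and 1514.5 in mesh, against 46.1 and 46.2 in whole cell (4.45 ± 0.56). Mirg, a microRNA host transcript of the same region, had 259 and 513 in mesh, against 10.7 and 10.6 in whole cell (4.97 ± 0.49), and Rian, which hosts small nucleolar RNAs there, had 686 and 807 in mesh, against 201 and 188 in whole cell (1.93 ± 0.13). All 3 were above both whole-cell libraries in each mesh library, and Meg3 and Mirg were about 2-fold apart between the mesh replicates.

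Other RNAs of the list differed less. Firre, an X-linked nuclear RNA, had 15.9 and 22.1 in mesh, against 4.68 and 5.12 in whole cell (1.75 ± 0.23). Tug1 had 61.8 and 43.4 in mesh, against 17.5 and 15.6 in whole cell (1.59 ± 0.26). Malat1, the abundant RNA of nuclear speckles, had 250.3 and 245 in mesh, against 164 and 115 in whole cell. The groups did not overlap, but the difference of 0.85 ± 0.26 was not a call. The members called lower were both ESC transcripts. Lncenc1 had 16.4 and 15.3 in mesh, against 54.1 and 56.7 in whole cell (-1.75 ± 0.06), and Platr17 had 5.24 and 6.85 in mesh, against 17.9 and 18.8 in whole cell (-1.47 ± 0.17). Xist did not pass the filter, with 0.072 rescaled FPKM or less in every library. Outside the list, Vax2os, an antisense transcript beside the homeobox gene Vax2, had 63.1 and 84.5 in mesh, against 1.11 and 1.56 in whole cell (4.99 ± 0.25).

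Host genes of small nucleolar RNAs, whose introns hold the small RNAs and whose spliced exons mostly code for no protein, were uneven. Of 17 tested, 4 were higher and 1 lower, with a median of 0.36 (4 higher, 3 lower and 0.20 without mesh replicate 2, and a median of 0.66 without mesh replicate 1). The list also holds Rpph1, the RNA of RNase P, which hosts none and had 3.34 and 63.9 in mesh, against 38.9 and 53.9 in whole cell, without a call. Snhg20 had 109 and 214 in mesh, against 21.5 and 23.6 in whole cell (2.71 ± 0.49). Snhg12 had 161 and 318 in mesh, against 60.004 and 56.4 in whole cell (1.94 ± 0.49), and Snhg5 had 171 and 196 in mesh, against 75.8 and 80.3 in whole cell (1.22 ± 0.11). Snhg9 went the other way: it was listed at 0 in both mesh libraries, against 8.96 and 13.1 in whole cell. Reads of a host gene and of the small RNAs in its introns can overlap in FPKM counted per locus, and the Snhg12, Snhg20 and Mirg values were higher in mesh replicate 2, the library rich in Snord49b, than in mesh replicate 1. The part of small RNA reads in these values was not tested.

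The protein-coding genes with the largest positive differences were not abundant in whole cell, which ranking by mesh minus whole cell favours. Dtx3, a Deltex-family ubiquitin ligase gene at chr10:127190378-127195727 (mm10), had 422 and 680.3 in mesh, against 12.7 and 16.3 in whole cell (5.12 ± 0.38). Its neighbour Arhgef25, which lies 358 bp away, had 293 and 370.4 in mesh, against 11.4 in both whole-cell libraries (4.74 ± 0.17). The next gene, Slc26a10, 1880 bp from Arhgef25, had 19.4 and 21.7 in mesh, against 1.06 and 0.856 in whole cell (3.46 ± 0.11). All mesh libraries of the 3 genes were therefore far above all whole-cell libraries.

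Further coding genes among the 12 largest positive differences had whole-cell levels under 5. Slc22a17, a lipocalin receptor gene, had 82.2 and 145 in mesh, against 3.58 and 2.51 in whole cell (4.78 ± 0.45). Msln, which codes for the surface protein mesothelin, had 62.4 and 77.7 in mesh, against 1.96 and 1.68 in whole cell (4.65 ± 0.17). Phf1, a Polycomb-associated protein gene, had 42.6 and 71.3 in mesh, against 1.81 and 1.24 in whole cell (4.48 ± 0.40). Nrbp2, a pseudokinase gene, had 62.5 and 93.4 in mesh, against 2.26 and 2.10 in whole cell (4.61 ± 0.29). In all of them the groups were far apart, as their selection requires, and mesh replicate 2 was the higher mesh library. Insl3, an insulin-like hormone gene, had 22.9 and 29.7 in mesh, against 0 and 2.95e-88 in whole cell. It overlaps the kinase gene Jak3, which had 42.5 and 61.5 in mesh, against 4.70 and 5.53 in whole cell (3.10), so reads of the pair may be shared. Igflr1, a receptor gene 895 bp from the histone methyltransferase gene Kmt2b, had 14.9 and 31.9 in mesh, against 5.72e-05 and 4.31e-13 in whole cell. Whole-cell estimates this small give no usable ratio.

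**Figure D2:**
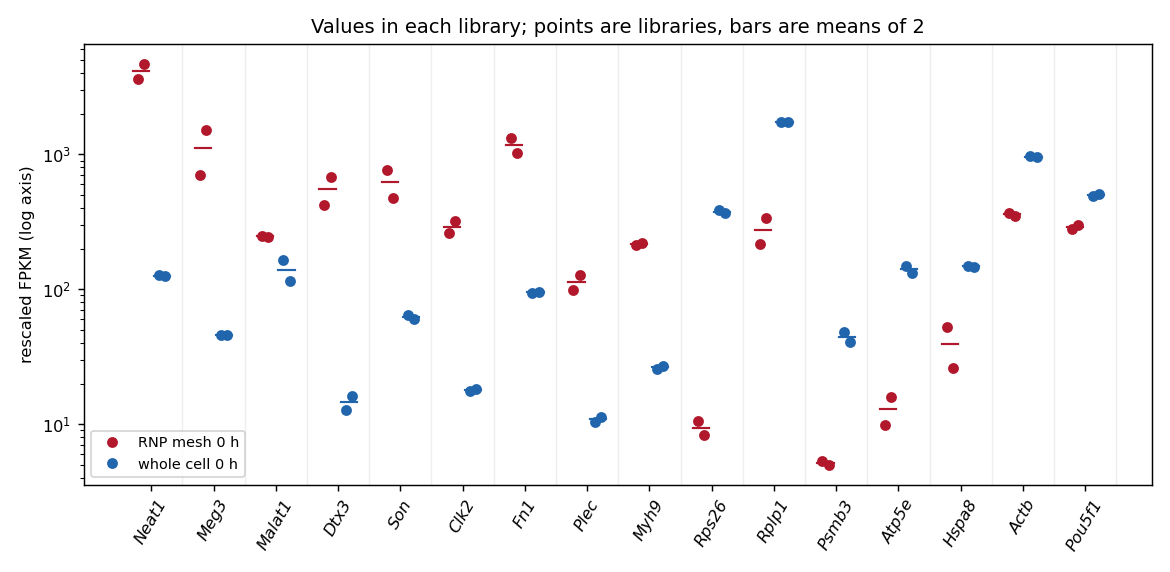
Rescaled FPKM of each library on a logarithmic axis for genes described in the text, with mesh libraries left of whole-cell libraries for each gene and 1 point per library. For Neat1, Dtx3, Fn1 and Plec both mesh points lie above both whole-cell points, and for Rps26, Psmb3, Atp5e and Actb both lie below.

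Splicing regulators split by gene. Among 42 SR and hnRNP genes, which code for proteins that bind pre-mRNA and steer splice site choice, 2 were higher and 5 lower, and the median was -0.10, which changed sign to 0.10 when libraries were scaled on genes past 20 FPKM. There were 4 higher and 6 lower without mesh replicate 2, and the median was -0.03 with either mesh replicate left out and -0.17 without RAD0 replicate 1. Son, whose protein is a core scaffold of nuclear speckles, had 771 and 473 in mesh, against 64.5 and 60.2 in whole cell (3.26 ± 0.36). Hnrnph3 had 67.5 and 80.1 in mesh, against 15.8 and 15.6 in whole cell (2.16 ± 0.12). Hnrnpd, the lowest of the list, whose protein binds AU-rich elements, had 70.7 and 78.7 in mesh, against 315 and 299 in whole cell (-2.03). Srsf1, the founding SR splicing factor, had 88.6 and 72.7 in mesh, against 253 and 251 in whole cell (-1.64), and Hnrnpu, also known as scaffold attachment factor A, had 98.2 and 90.7 in mesh, against 249.98 and 256 in whole cell (-1.41). Hnrnpk (-1.37) and Hnrnpc (-1.32) were called lower as well.

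Of 10 CLK and related kinase genes, whose proteins phosphorylate SR proteins, 2 were higher and none was lower, with a median of 0.42, and the same counts held without mesh replicate 2. Clk2 had 261 and 322 in mesh, against 17.8 and 18.2 in whole cell (3.94 ± 0.15). Clk3 had 23.1 and 27.2 in mesh, against 7.28 and 8.73 in whole cell (1.54). After 4 hr of IAA 1 of the 10 was higher, Clk2, and Clk3 was not called (0.56). The CLK messages are known for detained introns that hold them in the nucleus, but introns were not examined here. A pair of further genes, chosen after their values were seen, were called higher. Akap8l, a nuclear anchoring protein gene, had 272 and 317 in mesh, against 14.6 in both whole-cell libraries (4.24 ± 0.11), and Clasrp, a gene for a CLK-associating SR protein, had 135 and 217 in mesh, against 10.3 and 9.16 in whole cell (4.01 ± 0.35).

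A larger share of secreted protein messages was higher in mesh than of any other list of protein-coding genes with 10 or more tested. Of 38 tested extracellular matrix and secreted protein genes, 14 were higher and 1 was lower, and the median was 0.93 (18 higher, 1 lower and 1.08 without mesh replicate 2). Fn1, the fibronectin gene, had 1319.9 and 1030.5 in mesh, against 94.6 and 95.7 in whole cell (3.60 ± 0.18). Agrn, a basement membrane proteoglycan gene, had 244 and 274 in mesh, against 28.0 and 31.0 in whole cell (3.09 ± 0.11). Other basement membrane genes were higher as well: Col4a1 had 14.3 and 13.9 in mesh, against 1.17 and 1.24 in whole cell (2.77). The laminin chain gene Lama5 differed by 2.57, the collagen chain gene Col4a2 by 2.497 and the perlecan gene Hspg2 by 2.28.

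Other secreted and lysosomal messages were higher by smaller margins. Apoe, a lipid carrier gene, had 674 and 755 in mesh, against 233 and 256 in whole cell (1.54). Sparc, which codes for a matrix glycoprotein, had 213 and 181 in mesh, against 83.7 and 79.6 in whole cell (1.26). The lysosomal genes Grn (2.02), Ctsb (1.49), Psap (1.44) and Ctsd (1.29) were also called higher. Lefty1, a secreted Nodal antagonist gene, was the exception in the list, with 2.91 and 1.88 in mesh, against 17.6 and 15.0 in whole cell (-2.36).

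Among 49 receptor and adhesion genes, 10 were higher and none lower, with a median of 0.49 (14 higher and 1 lower without mesh replicate 2). Plxnb2, a semaphorin receptor gene, had 75.03 and 89.6 in mesh, against 10.2 and 8.81 in whole cell (2.99 ± 0.16). Lrp1, an endocytic receptor gene, had 15.6 and 20.4 in mesh, against 1.75 and 1.88 in whole cell. Cd9, a tetraspanin gene, had 668 and 456 in mesh, against 200.2 and 202 in whole cell (1.45). The receptor kinase gene Erbb2 (1.66), the cadherin-family gene Celsr1 (1.63) and the integrin chain gene Itga5 (1.51) were higher as well. Slc2a3, a glucose transporter gene, had 692 and 493 in mesh, against 245 and 228 in whole cell (1.30). By name, 59 of 195 Slc genes (30.3%), which code for solute carriers, were higher and 1 was lower, and 7 of 25 Gpr and Adgr receptor genes (28%) were higher and none lower. Leaving out mesh replicate 2, these were 62 of 184 Slc genes and 7 of 20 Gpr and Adgr genes.

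Endoplasmic reticulum chaperones and translocation factors were called higher at 0 hr at about the rate of all genes. Of 31 tested, 4 were higher and 2 lower, 27 had a difference above 0, and the median was 0.52 (8 higher, 2 lower and 0.85 without mesh replicate 2). Herpud1, an endoplasmic reticulum stress gene, had 22.5 and 21.8 in mesh, against 6.01 and 8.47 in whole cell (1.504). The chaperone gene Hspa5 had 212 and 131 in mesh, against 158 and 152 in whole cell, and its groups overlapped (0.11). The lectin chaperone genes Calr (0.84) and Canx (0.36) were not called. Sec61b and Sec61g, which code for small subunits of the translocon, were lower: Sec61b had 5.93 and 14.2 in mesh, against 77.1 and 65.3 in whole cell (-2.81), and Sec61g had 0.585 and 1.69 in mesh, against 19.1 and 19.9 in whole cell (-3.31).

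Cytoskeletal messages parted by protein. In the actin and tubulin list, 29 genes were tested, of which 4 were higher and 8 lower, and the median was -0.49. Myh9, the nonmuscle myosin heavy chain IIA gene, had 212 and 222 in mesh, against 25.9 and 27.03 in whole cell (2.99 ± 0.04). The paralogue Myh10 had 84.6 and 61.3 in mesh, against 12.0 and 12.7 in whole cell (2.45), and the actin crosslinker gene Flna had 176 and 162 in mesh, against 45.2 and 46.5 in whole cell (1.86). Messages of the filament subunits themselves were among the lower: Actb, for beta-actin, had 371 and 348 in mesh, against 964 and 961 in whole cell (-1.42 ± 0.04), and the actin-severing gene Cfl1 had 86.3 and 114 in mesh, against 436 and 461 in whole cell (-2.17). Tmsb4x, which codes for an actin monomer binder, differed by -2.03, and the tubulin gene Tubb5 by -1.16. Without mesh replicate 2 there were 6 higher and 7 lower.

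Very large cytoskeletal and scaffold proteins are encoded by 40 tested genes of a further list, of which 8 were higher and none lower. Their median was 0.34, and it was 0.56, with 12 higher, without mesh replicate 2 and 0.21 without mesh replicate 1. Plec, the plectin gene, had 99.4 and 127 in mesh, against 10.5 and 11.4 in whole cell (3.25 ± 0.19). Dst, the dystonin gene, had 89.5 and 77.1 in mesh, against 14.9 and 14.8 in whole cell (2.41 ± 0.11). The dynein heavy chain gene Dync1h1 had 167 and 109.6 in mesh, against 28.0 and 28.6 in whole cell (2.22). Sptbn1, a spectrin gene, had 137 and 82.1 in mesh, against 21.6 and 22.6 in whole cell (2.21), and each of these genes had its groups far apart. Birc6, which codes for a giant inhibitor of apoptosis, had 12.4 and 12.1 in mesh, against 22.1 and 22.7 in whole cell (-0.82), below whole cell in both mesh libraries but not called.

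Cytosolic ribosomal protein messages were lower in mesh more often than any other list. Of 76 tested genes, 45 were lower (10.6% of all genes), 3 were higher, and the median was -1.51. Their summed level was 6873.5 and 7070.0 rescaled FPKM in mesh, against 16162 and 16605 in whole cell. Most have processed pseudogenes of near-identical sequence, so the level of a single gene is uncertain, and 25 of 58 tested Rps and Rpl pseudogenes were lower too, with 2 higher. The pseudogenes summed to 9661 and 8687 in mesh, against 9355 and 10734 in whole cell, and these sums overlapped. Of 75 ribosomal protein genes tested without mesh replicate 2, 52 were lower and 2 higher. The start sites of these genes often lie in a pyrimidine tract, the terminal oligopyrimidine motif through which growth signals control their translation. The 30 bases around the RefSeq start (15 before it and 15 from it on, coding strand, GRCm38.p6) follow below. They are shown for the 4 largest decreases and for Rpl9, the largest increase, with the tract in capitals where found.
Rplp2 (chr7:141447636-141447665, +): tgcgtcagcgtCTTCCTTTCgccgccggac
Rpl7a (chr2:26910792-26910821, +): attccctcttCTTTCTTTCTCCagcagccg
Rps26 (chr10:128626492-128626521, -): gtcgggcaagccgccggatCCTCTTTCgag
Rpl38 (chr11:114668565-114668594, +): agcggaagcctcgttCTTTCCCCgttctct
Rpl9 (chr5:65391417-65391446, -): acgcagggccctgacggattacaagaacgt

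Rplp2, a gene of the ribosomal stalk and the largest decrease named, had 0.357 and 3.57 in mesh, against 210.2 and 195 in whole cell (-6.35 ± 0.88). Rpl7a had 0.507 and 0.931 in mesh, against 66.1 and 65.9 in whole cell (-5.30 ± 0.18), and Rps26 had 10.5 and 8.35 in mesh, against 384 and 366 in whole cell (-5.18 ± 0.15). Rpl38 had 0.485 and 6.28 in mesh, against 96.5 and 82.5 in whole cell (-4.78 ± 1.15), and its mesh libraries were far apart: the difference was -3.57 without mesh replicate 1 and -5.93 without mesh replicate 2. The abundant Rplp1 differed less, with 218 and 336 in mesh, against 1729.5 and 1740.2 in whole cell (-2.68), as did Rps3, with 358 and 343 in mesh, against 944 in both whole-cell libraries (-1.43).

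The exceptions among ribosomal protein genes were Rpl9, Rpl10a and Rpl29. Rpl9 had 40.9 and 39.5 in mesh, against 9.49 and 12.3 in whole cell (1.80 ± 0.17). Rpl29 had 166 and 143 in mesh, against 64.4 and 70.7 in whole cell (1.18), and Rpl10a was low everywhere, with 4.38 and 2.49 in mesh, against 0.516 and 0.350 in whole cell (1.60 ± 0.32). In the 30 bases shown for Rpl9 the tract was not found. The motif counted was a C followed by 4 bases that are each C or T, starting within 5 bases of the RefSeq start on the coding strand, and overlap with other motifs was not looked for. It was found in 27 of 57 ribosomal protein promoters matched (47.4%), against 17.2% of all 27025 promoters of the table. Genes lower in mesh held it in 19.9% of 613 promoters, genes higher in mesh in 19.5% of 1188, and all coding genes tested in 18.8% of 8619. Lower genes outside the ribosomal protein list held it in 18.1% of 579. Whether the tract went with the mesh difference within the list was not tested.

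Genes outside the ribosomal protein list stood among the largest decreases as well. Snrpg, which codes for a core Sm protein of spliceosomal snRNPs, was listed at 0 in both mesh libraries, against 24.3 and 18.8 in whole cell. Lsm5, a gene for an Sm-like protein, had 0 and 1.35 in mesh, against 30.4 and 34.2 in whole cell (-4.44 ± 0.62). Tpt1, whose message also starts with a pyrimidine tract, had 1.07 and 4.63 in mesh, against 59.1 and 53.4 in whole cell (-4.07 ± 0.73). All 3 had both mesh libraries far below both whole-cell libraries.

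Other messages of growth and metabolism went the same way as the ribosomal proteins. Of 76 mitochondrial ribosomal protein genes, 15 were lower and none higher, with a median of -0.80, and Mrps14 had 9.95 and 17.96 in mesh, against 74.0 and 63.5 in whole cell (-2.27 ± 0.41). Of 72 nuclear genes of oxidative phosphorylation, 28 were lower and none higher, with a median of -1.02. Atp5e, an ATP synthase subunit gene, had 9.90 and 15.96 in mesh, against 149 and 131 in whole cell. Of 31 proteasome subunit genes, 13 were lower and none higher, with a median of -1.04. Psmb3, of the proteolytic core, had 5.32 and 5.04 in mesh, against 48.1 and 40.8 in whole cell (-2.88 ± 0.12). Without mesh replicate 2, the lower counts in these 3 lists were 18, 34 and 13, and no gene was higher.

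Translation factors and glycolytic enzymes also had mostly lower values. Of 34 translation factor genes 13 were lower and 1 was higher, with a median of -0.98 (15 lower and 1 higher without mesh replicate 2). Eef1a1, the elongation factor that brings aminoacyl-tRNA to the ribosome, had 527 and 444 in mesh, against 1629.9 and 1617 in whole cell (-1.75), a level uncertain for its many copies. Eif4a2, a helicase gene of initiation that hosts small nucleolar RNAs, was the higher gene, with 438 and 436 in mesh, against 118 and 110.1 in whole cell (1.93 ± 0.05). Eef2 had 442 and 522 in mesh, against 516 and 509.95 in whole cell, so its groups overlapped. Of 33 glycolysis and chaperone genes 15 were lower and none higher, with a median of -1.05 and the same counts without mesh replicate 2. Among them Ldha, the lactate dehydrogenase gene, had 128 and 115 in mesh, against 374 and 388 in whole cell, and Hspa8, a constitutive chaperone gene, had 52.9 and 26.0 in mesh, against 149 and 147 in whole cell (-1.97 ± 0.50). Prdx1, a peroxiredoxin gene of the list, had 71.4 and 61.6 in mesh, against 351 and 346 in whole cell (-2.38).

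Of 9 tested transcripts made inside mitochondria, 1 was called lower and none higher (2 lower without mesh replicate 2). The median was -0.54, and 1 of the 9 had a difference above 0, that of mt-Co1. mt-Co1, a cytochrome oxidase subunit transcript, had 5229.7 and 4156 in mesh, against 4632 and 4606 in whole cell (0.01). mt-Nd4 had 902 and 948 in mesh, against 878 and 989 in whole cell, and both genes had overlapping groups. mt-Nd6, the protein-coding transcript of the light strand, had 11.1 and 39.4 in mesh, against 273 and 247 in whole cell (-3.56 ± 0.87). Of the summed FPKM of genes not under the span limit, mitochondrial genes took 3.58% and 3.07% in mesh, against 4.20% and 4.25% in whole cell. The part of cytoplasm carried over with the nuclei in any of these differences was not tested.

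**Figure D3:**
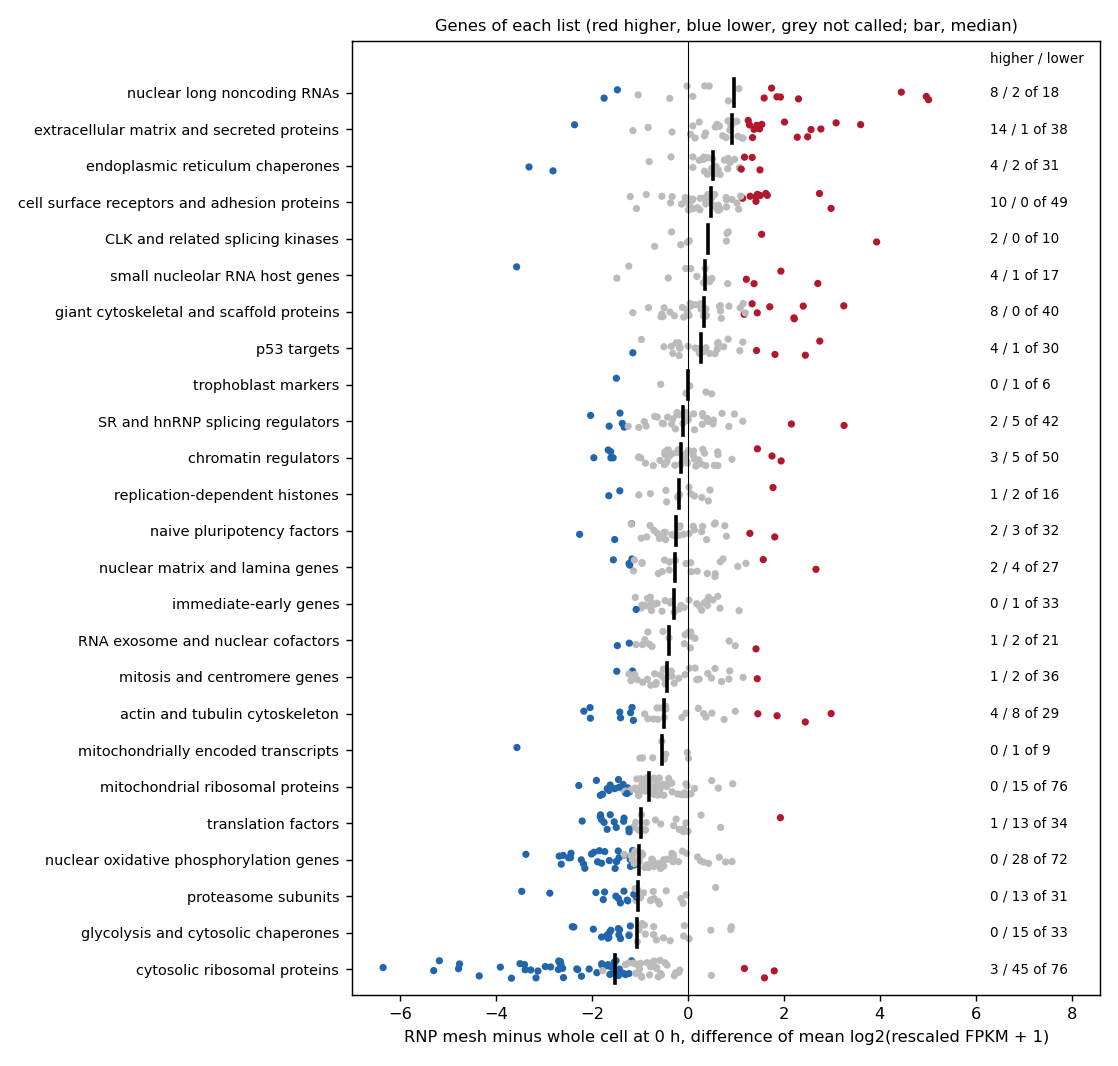
Log2 mesh minus whole cell (horizontal axis) for the tested members of the gene lists, 1 point per gene with the list's median as a bar; the vertical line marks 0. Nuclear long noncoding RNAs (0.96) and secreted proteins (0.93) lie at the upper end by median, and cytosolic ribosomal proteins (-1.51) at the lower end.

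Genes of ESC identity and of chromatin differed less as groups. Of 32 naive pluripotency factors 2 were higher and 3 lower, the same counts as without mesh replicate 2, with a median of -0.25 (-0.12 without mesh replicate 1 and -0.15 without mesh replicate 2). Nanog had 142 and 128 in mesh, against 269 and 262 in whole cell (-0.97), and Sox2 had 108 and 164 in mesh, against 192 and 199 in whole cell (-0.55), so both core factors were lower without a call. The paralogues of Lin28, RNA-binding proteins that block let-7 maturation, had opposite calls. Lin28b had 38.5 and 31.4 in mesh, against 9.30 and 9.09 in whole cell (1.81 ± 0.14). Lin28a had 46.8 and 46.7 in mesh, against 135 and 138 in whole cell (-1.52 ± 0.02).

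Among 50 chromatin regulators 3 were higher and 5 lower, also without mesh replicate 2, and the median was -0.14, or 0.05 when libraries were scaled on genes past 20 FPKM. That median was -0.069 without mesh replicate 2 and -0.24 without RAD0 replicate 1. The de novo DNA methyltransferase gene Dnmt3a had 9.53 and 9.86 in mesh, against 40.7 and 40.4 in whole cell (-1.96 ± 0.02), and its relative Dnmt3b differed by -1.66. The H3K4 methyltransferase gene Setd1a had 69.6 and 89.5 in mesh, against 19.7 and 19.8 in whole cell, and Kmt2b, of the same activity, differed by 1.75. Of 27 genes for nuclear matrix and lamina proteins 2 were higher and 4 lower (4 and 3 without mesh replicate 2). Safb2, a scaffold attachment factor gene, had 76.2 and 131 in mesh, against 14.1 and 15.7 in whole cell (2.67), while the lamin gene Lmnb1 differed by -1.55.

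The remaining lists had few calls. With all 4 libraries their shares were near or below those over all genes, 13.1% higher and 10.6% lower. The largest were 13.3% higher for p53 targets and 12.5% lower for replication-dependent histone genes. Of 21 RNA exosome and cofactor genes 1 was higher and 2 lower (2 and 2 without mesh replicate 2): Pabpn1, the nuclear poly(A)-binding protein gene, had 483 and 571 in mesh, against 198 and 193 in whole cell (1.42), and Dis3, a catalytic exosome subunit gene, had 17.9 and 17.7 in mesh, against 51.6 and 50.4 in whole cell (-1.47). Of 30 p53 targets 4 were higher and 1 lower (5 and 1 without mesh replicate 2). The stress cytokine gene Gdf15 had 8.46 and 16.5 in mesh, against 0.441 and 1.53 in whole cell (2.75 ± 0.60), and the DNA damage sensor gene Ddb2 had 38.6 and 47.0 in mesh, against 7.02 and 6.93 in whole cell (2.45). The p53 targets Cdkn1a (0.62) and Mdm2 (0.45) were not called. Of 33 immediate-early genes 1 was lower and none higher, of 36 genes of mitosis and centromeres 1 was higher and 2 lower, and of 16 replication-dependent histone genes, whose messages end without poly(A), 1 was higher and 2 lower. The immediate-early genes had 1 higher and 2 lower without mesh replicate 2, the mitosis genes 3 and 4, and the histone genes 1 and 3.

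By annotated class, the calls among processed pseudogenes were mostly lower, and lincRNAs and antisense genes had more higher than lower calls. Over all genes 13.1% were higher and 10.6% lower. Processed pseudogenes are copies of spliced messages that can take reads of their parents, which was not tested here. Of 1002 tested, 476 (47.5%) were lower and 26 higher, with a median of -1.21 (-0.74 without RAD0 replicate 1 and -0.71 without RAD0 replicate 2). A gene can pass the filter through its whole-cell libraries alone, which favours lower calls. Among all classes, 931 of the 1338 lower genes still passed without RAD0 replicate 1. No lower count of pseudogenes free of this is given. Processed pseudogenes took 11.6% and 9.84% of the summed FPKM of genes not under the span limit in mesh, against 14.4% and 15.0% in whole cell. Of 159 lincRNAs 31 (19.5%) were higher and 12 lower, with a median of 0.23. The lincRNA median was -0.07, with 24 higher and 17 lower, without mesh replicate 2. It was 0.38 and 0.41 without RAD0 replicate 1 and without RAD0 replicate 2. In the libraries after 4 hr of IAA it was -0.14, with 21 higher and 15 lower of 148 tested. Of 103 antisense genes 28 (27.2%) were higher and 4 lower, against 11 higher and 6 lower of 69 tested without mesh replicate 2. The 10973 coding genes had 1509 higher and 804 lower.

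Locus length went with the calls among coding genes. Between 5 and 10 kb of locus span 21.3% were higher and 7.46% lower, while among the 1142 genes of 100 kb or more 5.78% were higher and 3.68% lower. The shortest, of 300 to 2000 bp, had 10.2% higher and 15.0% lower (n = 334). Level went with the calls as well. Genes were grouped by their mean in the wcl libraries, which entered neither side of the comparison. Genes under 5 rescaled FPKM are left out of this count, because the filter and the pseudocount limit how far a low gene can be lower in mesh. Between 5 and 20 rescaled FPKM 9.98% were higher and 7.56% lower (n = 3927), and at 100 or more 2.34% were higher and 36.9% lower (n = 214). The median difference was -0.13 between 5 and 20 and -0.98 at 100 or more. Locus span is not transcript length, and the part of either in the other's pattern was not tested.

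**Figure D4:**
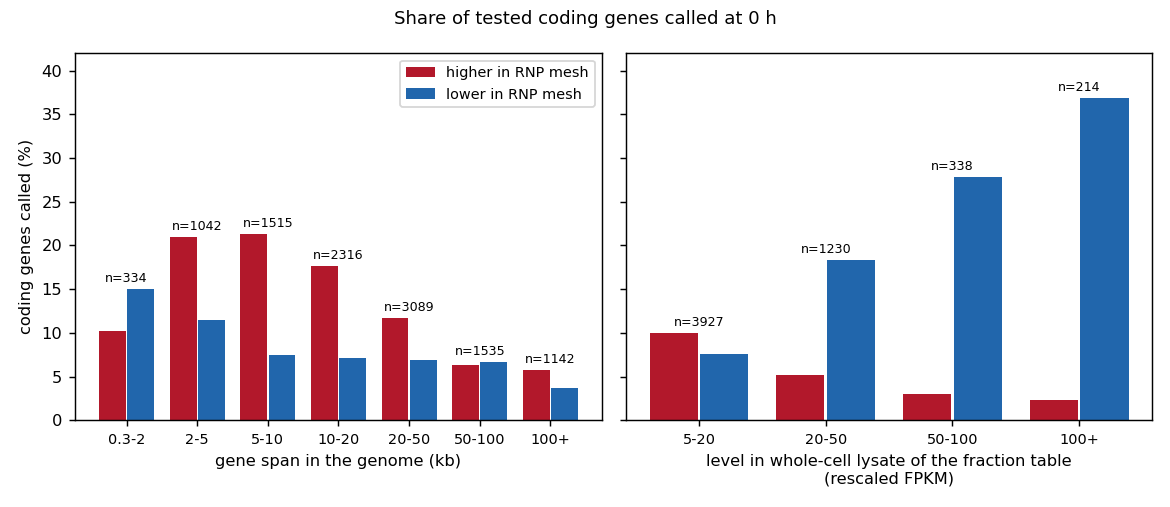
Percent of coding genes called higher and lower in mesh, by locus span in kb and by mean rescaled FPKM in the wcl libraries, with bars starting at 0. The percent lower climbs from 7.56% between 5 and 20 rescaled FPKM to 36.9% at 100 or more, and genes under 5 are not drawn.

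Adjacent coding genes that lie close together were both higher in mesh more often than those farther apart, as with Dtx3, Arhgef25 and Slc26a10. Of 3435 pairs of adjacent tested coding genes within 5000 bp, both members were higher in 258 (7.51%), against 2.05% of 7517 adjacent pairs farther apart. Both were lower in 27 (0.786%), against 0.878% of the farther pairs. Of all 10973 coding genes tested, 13.75% were higher and 7.33% lower. At least 1 member was higher in 1146 of the close pairs. How far the call rate of single genes in close pairs accounts for the shared calls was not tested. Among pairs that do not overlap, both members were higher in 71 of 751 pairs on the same strand (9.45%), in 34 of 557 convergent pairs (6.10%) and in 27 of 535 divergent pairs (5.05%), and 24.9%, 19.5% and 13.9% of the members of those pairs were higher. The libraries were made with a directional kit, but the sources used here do not give the strand setting of the authors' counting, so reads of overlapping neighbours cannot be told apart.

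The comparison was repeated in libraries that took no part in the calls, the RNPmesh and RAD0 libraries after 4 hr of IAA, where 1777 of 12661 genes were higher (14%) and 1734 lower (13.7%). These libraries stand in the same 2 tables as those at 0 hr. Of the 1648 genes higher at 0 hr, 1592 were tested at 4 hr, and of those 1085 (68.2%) were higher, none was lower, and 1575 had a difference above 0. Of the 1338 lower genes, 1286 were tested and 1001 (77.8%) were lower and none higher. As a share of the calls at 4 hr these were 61.1% of the higher and 57.7% of the lower genes. No gene was called on opposite sides. The median at 4 hr was 1.49 for the genes higher at 0 hr and -1.72 for those lower.

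The genes named at 0 hr are given here at 4 hr. Neat1 had 10179 and 9266 in mesh, against 168 and 169 in whole cell (5.84), Fn1 differed by 4.32, Dtx3 by 3.91, Son by 3.47 and Clk2 by 3.08. Meg3 differed by 2.39, beside 4.45 at 0 hr. Cytosolic ribosomal protein genes had 65 lower of 75 tested, none higher and a median of -2.22, and secreted protein genes had 24 higher and 1 lower, with a median of 1.64. Receptor genes had 27 higher of 48 tested and giant protein genes 20 of 40, with none lower. Endoplasmic reticulum chaperones and translocation factors had 14 higher and 2 lower of 31, with a median of 1.02. The host genes of small nucleolar RNAs stood otherwise: none was higher, 7 were lower and the median was -0.59, with Snhg12 at 0.59 and Snhg20 at 0.83. Whether any difference changed between the times was not tested, since IAA and time move together with it.

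The nearest comparison that can be tested within 1 table is chrRNP against wcl and against cyto at 0 hr. limma, fitted on all 16 fraction libraries with Benjamini-Hochberg adjustment, called 3897 of 13662 genes higher (28.5%) and 2742 lower (20.1%) in chrRNP than in wcl. Against cyto it called 5512 higher (40.3%) and 4448 lower (32.6%). On values as deposited, where the all-gene median was -0.87 against wcl and -0.92 against cyto, the calls were 653 higher and 10130 lower against wcl, and 1842 higher and 8862 lower against cyto, so directions here are relative to the median gene. The calls against wcl depended on single libraries: there were 2464 higher and 1278 lower without chrRNP replicate 1, and 1689 and 1682 lower without wcl replicate 1 and without wcl replicate 2.

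Of the genes higher in mesh 1410 were tested, of which 500 (35.5%) were higher and 84 (5.96%) lower in chrRNP than in wcl, with a median of 0.23, against 0.06 over all genes. Of the genes lower in mesh 1187 were tested, of which 89 (7.498%) were higher and 571 (48.1%) lower, with a median of -0.41. Against cyto the shares were 55.5% higher and 16.7% lower for the genes higher in mesh, and 10.5% higher and 69.3% lower for the genes lower in mesh. Both contrasts share the chrRNP libraries. Across 11648 genes, which are not independent, r with the mesh difference was 0.360 against wcl and 0.365 against cyto.

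**Figure D5:**
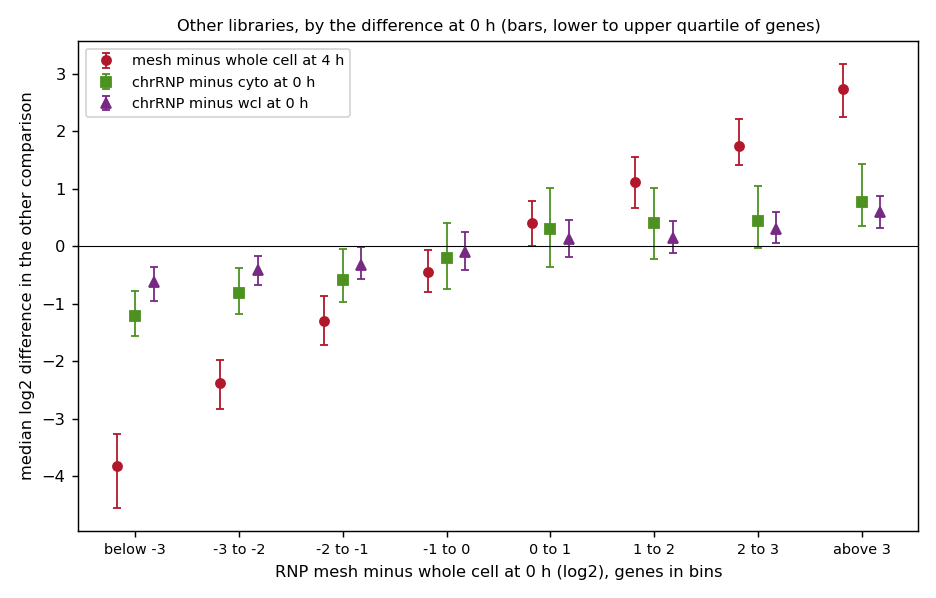
Median difference in 3 other comparisons (vertical axis, log2) for genes grouped by log2 mesh minus whole cell at 0 hr (horizontal axis). Genes above 3 at 0 hr have medians of 2.74 in mesh minus whole cell at 4 hr, 0.59 in chrRNP minus wcl and 0.77 in chrRNP minus cyto, and genes below -3 have medians of -3.82, -0.63 and -1.22.

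Noncoding RNAs were high in chrRNP too. Neat1 averaged 138 rescaled FPKM in chrRNP, 25.7 in wcl and 4.16 in cyto, a log2 difference from wcl of 2.36 ± 0.19 (SE, limma adjusted p = 1.69e-05). Malat1 averaged 973 in chrRNP and 447 in wcl, a difference of 1.10 ± 0.17 (limma adjusted p = 0.000376), and it was not called in mesh. Of the nuclear long noncoding RNAs, 16 were higher and none lower than in wcl. Lncenc1 went against its mesh call, with 70.7 in chrRNP and 44.1 in wcl (0.66 ± 0.12, limma adjusted p = 0.00118). The host genes of small nucleolar RNAs had 14 higher and none lower, Snhg9 among them at 30.7 in chrRNP and 14.5 in wcl (1.1995 ± 0.37, limma adjusted p = 0.0193), while it was listed at 0 in mesh.

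Nearly all giant protein genes were high in chrRNP: 37 of 40 were higher than in wcl and none lower, with a median of 0.86. Plec averaged 161 in chrRNP and 21.6 in wcl (2.76 ± 0.22, limma adjusted p = 1.69e-05). Secreted protein genes had 8 higher and 1 lower of 37 against wcl, with a median of 0.07, and 34 higher and none lower against cyto. Fn1 averaged 93.2 in chrRNP, 54.3 in wcl and 10.0 in cyto, with a difference from cyto of 3.11 (limma adjusted p = 4.68e-08). Transcripts made inside mitochondria were higher than in cyto as well, all 9 tested, with a median of 3.21. Against wcl 2 of them were lower and none higher. The part of cytoplasm or organelles kept in the chrRNP pellet in these differences was not tested. Ribosomal protein genes had 36 lower and 15 higher than in wcl, with a median of -0.54. Rpl7a averaged 6.59 in chrRNP and 15.5 in wcl (-1.10 ± 0.26, limma adjusted p = 0.00413), and Rplp2 averaged 28.4 in chrRNP and 36.2 in wcl, which did not pass (limma adjusted p = 0.0657). Rpl9 was again above, with 44.6 in chrRNP and 10.8 in wcl (1.94 ± 0.15, limma adjusted p = 1.69e-05). Dtx3 averaged 9.51 in chrRNP and 4.53 in wcl (0.93 ± 0.16, limma adjusted p = 0.000728), and Clk2 15.0 in chrRNP and 11.5 in wcl (0.36 ± 0.10, limma adjusted p = 0.0144). Oxidative phosphorylation genes had 51 lower and 1 higher of 72, and proteasome genes 26 lower and none higher of 31.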

How the data were processed

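The authors deposited FPKM values per gene, and the submitters' processing notes name TopHat2 2.0.11, Cufflinks 2.0.2, bedtools and the mm10 build (dm6 as well for the mesh libraries), with no role or order. The mesh labels name fly RNA added by cell number, the RAD0 labels none, and the sources used here do not say whether a factor was applied. They give no read depth, so no counting interval is printed. From 3 deposited tables, libraries were rescaled by the median ratio over genes, genes with a locus span under 300 bp were dropped, and log2(rescaled FPKM + 1) was used; the pseudocount understates changes of low genes. The filter was 1 rescaled FPKM in at least 2 libraries. Mesh and whole-cell libraries, in separate tables, were compared without a test, a call needing a gap of at least 1 between the nearest libraries. Within the fraction table of 16 libraries in 8 groups of 2, limma 3.58.1 (R 4.3.3; trend, moderated) was fitted, with calls at an adjusted p under 0.05. It was tested on simulated data. Named genes were the 12 largest differences in each direction with a mean of at least 5 (clones, pseudogenes and small RNAs passed over), the 2 highest and 2 lowest of each of 28 lists, and a few fixed genes. Additional members, such as Col4a1, Apoe, Rian, Firre, Tug1, Actb, Flna, Eef1a1 and Jak3, were chosen after their values were seen. The members and lists were chosen with earlier results of these data known. Alternatives covered scaling, filters, pseudocount 0.1, span and leaving out each library. Sequences are from RefSeq promoters (GRCm38.p6), from 250 bases before to 50 after the start. Python 3.11.15, pandas 2.3.3 and numpy 2.4.6 were used.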

Additional observations from a re-analysis of the deposited data

Results flagged for a closer look

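Named genes were singled out where every mesh library lay above the whole-cell libraries at 0 hr and below them at 4 hr of IAA, or the reverse. The difference between the times was not tested. Rpl10a, a ribosomal protein gene, differed by 1.60 at 0 hr and by -0.94 at 4 hr, where it had 0.568 and 0.104 rescaled FPKM in mesh, against 1.69 and 1.36 in whole cell. Snhg5, a host gene of small nucleolar RNAs, differed by 1.22 at 0 hr and by -0.59 at 4 hr, with 31.7 and 30.2 in mesh, against 51.6 and 43.0 in whole cell. Cox7c, a cytochrome oxidase subunit gene, had 36.7 and 46.6 in mesh, against 21.3 and 26.0 in whole cell at 0 hr (0.79), and 7.62 and 8.62 in mesh, against 21.8 and 27.1 in whole cell at 4 hr (-1.47). Mrpl38, a mitochondrial ribosomal protein gene, differed by 0.64 at 0 hr and by -0.25 at 4 hr, and the proteasome gene Psmd4 by 0.58 and by -0.17. Birc6 went the other way, with -0.82 at 0 hr and 0.29 at 4 hr, where it had 23.9 and 22.9 in mesh, against 18.5 and 19.4 in whole cell. Among all 12032 genes tested at both times, 317 were above at 0 hr and below at 4 hr in this way, and 364 below and then above.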

How the results depend on the processing

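The mesh calls were 1648 higher and 1338 lower. With a filter of 5 rescaled FPKM 870 were lower. Leaving out each library in turn gave 1752 to 1958 higher and 1163 to 1727 lower calls. No paired analysis was made for mesh against whole cell. Beyond the replicate number, no label links a mesh library to a whole-cell library. With the 4 hr libraries in place of those at 0 hr, among named genes called at 0 hr, the sign turned for Rpl10a (-0.94), Hist2h2bb (0.10) and Snhg5 (-0.59). In chrRNP minus wcl, values as deposited gave 653 higher and 10130 lower calls, a fit on only the 2 groups gave 1913 higher and 514 lower, and leaving out a library gave 2464 to 4371 higher and 1278 to 3380 lower. In chrRNP minus cyto, values as deposited gave 1842 higher and 8862 lower, and leaving out a library 4854 to 5584 higher and 3819 to 4427 lower. On values as deposited the difference from wcl turned for Malat1 (-0.22), Lncenc1 (-0.63), Snhg20 (-0.67), Clk2 (-0.85), Dtx3 (-0.20), Fn1 (-0.54), Myh9 (-0.85), Lin28b (-0.13) and Snhg9 (-0.045), and the difference from cyto for Lncenc1 (-0.52), Clk2 (-0.91) and Dtx3 (-0.55). The cause was not tested. With a replicate block limma gave 3981 higher and 2881 lower against wcl, and 5532 higher and 4471 lower against cyto; same-numbered libraries did not deviate together (correlations of -0.029 and 0.068). With 2 libraries a group and no read depth, small differences between low genes were not detectable.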
